A study of Homo sapiens with 3 samples.

Results

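ISG15 is a small protein of the ubiquitin family, and it was examined here with the 5 proteins that attach it to other proteins or take it off: UBA7, UBE2L6, HERC5, HERC6 and USP18. The 6 genes were chosen by name, with earlier results of the same arrays known, and every probe set that the platform annotation gives to one of them was taken. Of the 6 genes, 5 had a probe set of their own, 1 set each, among 11963 genes measured in all. UBA7 is listed only on 2 sets that the annotation gives to UBA7 and MIR5193 together, so these sets are described but not counted as UBA7.

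The 3 samples were HEK293T cells, a line from human embryonic kidney that also expresses SV40 large T antigen. All 3 were transfected with Fugene HD and received dCas9VP160, a Cas9 without nuclease activity joined to the VP160 activation domain, so the effector and the transfection were shared by every group. One sample received the guides sgIL1RN1~3, directed to the IL1RN promoter, one received sgTetO, directed to the TetO promoter, and one received sgTetOmut, a mutant form of sgTetO that served as the non-targeting control. Each guide was measured on 1 array, so no value below carries a replicate error, no test between conditions was possible and no p-value is given. The time from transfection to harvest is not given in the sources used here, and no array of untransfected cells was analysed here.

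The deposited values are log2 values per probe set. A probe set was called above background on an array when it exceeded the highest of the 27 chip control sets for Bacillus transcripts, which stood at 3.40 on sgIL1RN1~3, 3.40 on sgTetO and 3.29 on sgTetOmut. A gene was counted as different between 2 arrays when its log2 values lay at least 1 unit apart, which is 2-fold, and the brighter value reached the median of all genes on its array (6.23, 6.19 and 6.19 in the same order of arrays). The labelled line was checked by markers. All 7 measured HEK293T markers, among them NEFL, NEFM, VIM and TUBB3, were above background on all 3 arrays, and 5 reached the median level. Of all genes, 76.5% were above background on sgIL1RN1~3, 76.0% on sgTetO and 77.8% on sgTetOmut. The count above background therefore says little about the line by itself. Of 7 measured markers of immune cells, 3 were above background on all arrays and 0 reached the median level, and PTPRC, CD3E and MS4A1 were not above background on any array. Of 6 measured markers of endothelial cells and fibroblasts, 3 were above background on all arrays, and 2 collagen genes reached the median level, COL1A1 at 7.30, 7.14 and 7.08 and COL3A1 at 7.16, 7.06 and 7.16 on sgIL1RN1~3, sgTetO and sgTetOmut. That list's summed linear value was 340 on sgIL1RN1~3, 314 on sgTetO and 323 on sgTetOmut. The immune markers' summed linear value was 120 on sgIL1RN1~3, 114 on sgTetO and 116 on sgTetOmut.

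ISG15 is made as a precursor whose end is trimmed, and is then joined to lysines of other proteins by a chain of enzymes that parallels ubiquitination. UBA7 activates it, UBE2L6 carries it, and HERC5 is the main ligase that transfers it to newly made proteins in human cells, while HERC6 holds that role in mice. USP18 removes ISG15 from its targets and, apart from that activity, binds the interferon receptor chain IFNAR2 and dampens its signal. Genes of the system are switched on by type I interferon through the interferon-stimulated response element, a DNA element in their promoters. Free ISG15 also acts inside the cell, where it stabilises human USP18, and is secreted.

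Because the members are known as interferon-stimulated genes, their promoters are shown before their values. RefSeq windows on GRCh38.p14, reaching from 250 bases before a gene's start to 50 bases after it, were available for ISG15, UBE2L6 (2 starts), HERC5 and HERC6. They were searched on both strands for the core repeat of the response element, taken as GAAA, then NN for 2 bases of any kind, then GAAA. Each sequence below runs 5′ to 3′ along the gene's own strand from 150 to 51 bases before the start, and capitals mark bases that belong to a match or to its reverse complement.
ISG15, chr1:1013347-1013446, plus strand: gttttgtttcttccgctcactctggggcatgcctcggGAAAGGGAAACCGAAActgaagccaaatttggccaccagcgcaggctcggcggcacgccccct
HERC5, chr4:88456969-88457068, plus strand: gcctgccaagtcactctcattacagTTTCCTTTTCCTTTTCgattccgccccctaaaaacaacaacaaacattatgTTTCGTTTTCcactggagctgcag
HERC6, chr4:88378702-88378801, plus strand: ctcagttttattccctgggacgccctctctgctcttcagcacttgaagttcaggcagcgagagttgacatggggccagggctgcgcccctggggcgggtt
UBE2L6, chr11:57567986-57568085, minus strand, outer start: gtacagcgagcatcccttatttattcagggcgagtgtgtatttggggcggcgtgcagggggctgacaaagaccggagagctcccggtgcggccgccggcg

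The ISG15 window held 2 overlapping matches, GAAAGGGAAA from 113 to 104 bases and GAAACCGAAA from 107 to 98 bases before the start. The HERC5 window held 3 matches on the opposite strand, 2 of them overlapping. No match lay in the HERC6 window or in either UBE2L6 window. Over all 35116 promoter windows of this length, 3.57% held at least 1 match and 0.259% held 2 or more. Of the other interferon-stimulated genes listed for comparison, 24 of the 32 that had a window held a match (75%), against 4.13% of all 9563 measured genes with a window. A match describes letters in a window and is not a measured binding site.

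ISG15, the modifier itself, had log2 values of 7.49 on sgIL1RN1~3, 7.53 on sgTetO and 9.37 on sgTetOmut. The control-guide array was the high one, and sgIL1RN1~3 differed from sgTetO by -0.04. ISG15 was therefore 3.69-fold lower on sgIL1RN1~3 and 3.58-fold lower on sgTetO than on sgTetOmut. The 200 genes nearest to it in level gave a scale for these numbers: their median absolute difference was 0.14 log2 units between sgIL1RN1~3 and sgTetOmut and 0.08 between sgTetO and sgTetOmut.

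UBA7, the activating enzyme, could be followed only through its shared sets, and neither had the pattern of ISG15. Set 203281_s_at, whose RefSeq accession belongs to UBA7, read 3.72 on sgIL1RN1~3, 3.36 on sgTetO and 3.36 on sgTetOmut. It stood 0.31 above the highest Bacillus value on sgIL1RN1~3, below it on sgTetO and 0.07 above it on sgTetOmut. Set 1294_at read 3.69 on sgIL1RN1~3, 4.19 on sgTetO and 4.07 on sgTetOmut. The 2 sets moved in opposite directions on sgIL1RN1~3 relative to sgTetOmut, by 0.36 and -0.38 log2 units, and MIR5193 lies within the span of UBA7 in the RefSeq table. A level this near background limits what either set could show of a difference.

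UBE2L6, the conjugating enzyme, read 5.88 on sgIL1RN1~3, 5.94 on sgTetO and 7.87 on sgTetOmut. It was 3.99-fold lower on sgIL1RN1~3 and 3.82-fold lower on sgTetO than on sgTetOmut. This was the widest gap of the 5 genes in the deposited values, but with 16 added to the linear values ISG15 was wider in both pairs (-1.75 against -1.69 on sgTetO) and HERC6 on sgIL1RN1~3. It reached the median level on sgTetOmut only, so it entered the count through the array where it was high. It was above background on all 3 arrays, by 2.47 log2 units or more.

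HERC5, the human ligase, read 7.46 on sgIL1RN1~3, 7.87 on sgTetO and 8.98 on sgTetOmut. Its neighbour HERC6 read 6.57 on sgIL1RN1~3, 7.22 on sgTetO and 8.48 on sgTetOmut. Both were highest on sgTetOmut. For sgIL1RN1~3 minus sgTetO, HERC5 differed by -0.40 and HERC6 by -0.65, against -0.04 for ISG15 and -0.06 for UBE2L6. Relative to sgTetOmut, HERC5 was 2.86-fold lower on sgIL1RN1~3 and 2.17-fold lower on sgTetO. HERC6 was 3.76-fold lower on sgIL1RN1~3 and 2.39-fold lower on sgTetO. With 1 array a guide, whether the 3 levels of either ligase are distinct steps cannot be tested.

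USP18, the protease that reverses the modification, read 7.21 on sgIL1RN1~3, 7.21 on sgTetO and 8.60 on sgTetOmut. It was 2.61-fold lower on sgIL1RN1~3 and on sgTetO alike than on sgTetOmut. Its deposited values on sgIL1RN1~3 and sgTetO were identical to the last digit, which was so for 6.41% of all 22277 probe sets between these arrays. Equal values of this kind are therefore not particular to USP18.

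**Figure D1:**
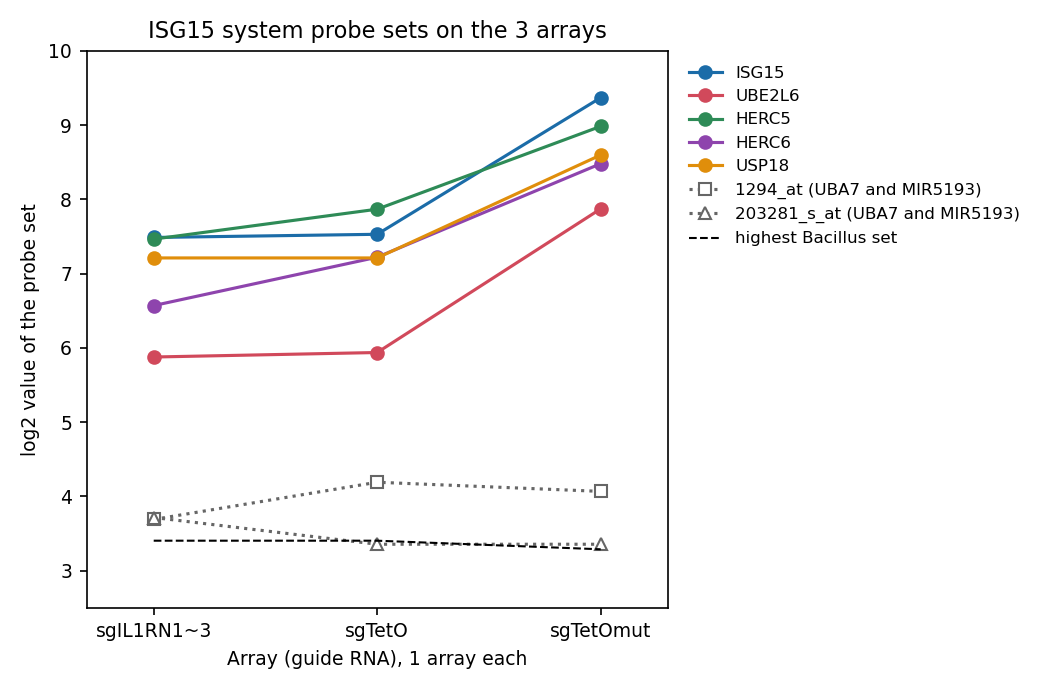
log2 value (y axis) of each probe set of the ISG15 system on the 3 arrays (x axis, 1 array per guide). Filled points are the 5 genes with a set of their own, open points the 2 sets shared by UBA7 and MIR5193, the dashed line is the highest Bacillus control set, and thin lines only join the values of 1 probe set. The 5 genes are highest on sgTetOmut, from 7.87 for UBE2L6 to 9.37 for ISG15, while both shared sets stay at or below 4.19.

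Between sgTetO and sgTetOmut, 5 of the 5 measured members were at least 2-fold lower on sgTetO, by 1.12 (HERC5) to 1.93 (UBE2L6) log2 units in size. Over all 6056 genes at the median level in this pair, 0.611% were that much lower and 0 were that much higher. With no minimum level the members' count was again 5, the share was 0.41% of 11963 genes, and 2 genes were 2-fold higher. Ranked from the lowest difference among the 6056 genes, UBE2L6 was number 11, ISG15 number 15, USP18 number 26, HERC6 number 31 and HERC5 number 34. The members' median difference was -1.39, against -0.01 for all genes. Since the genes were chosen with these values known, the count describes them and is no support for an effect of the guide.

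Between sgIL1RN1~3 and sgTetOmut, 5 of the 5 measured members were at least 2-fold lower on sgIL1RN1~3. Of the 6106 genes at the median level in this pair, 0.622% were that much lower and 0.0328% that much higher. With no minimum level 5 members and 0.476% of all genes were lower, while the number of higher genes went to 14 against 2 with the minimum. Their median difference was -1.88, against 0.00 for all genes, and ran from -1.99 for UBE2L6 to -1.39 for USP18. This comparison and the one before share the sgTetOmut array, so they are not independent views of the members. One array stands apart in both, and a difference in the guide cannot be told apart from any other difference of that one sample.

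Between sgIL1RN1~3 and sgTetO, which leaves sgTetOmut out, 0 of the 5 members were 2-fold apart. In this pair 4 members were at the median level. UBE2L6 was below it on both arrays, so UBE2L6 is not among the genes counted and ranked below. Of the 6104 genes at the median level, 0.0983% were 2-fold higher and 0.0655% were 2-fold lower. The members' differences were -0.65 for HERC6, -0.40 for HERC5, -0.06 for UBE2L6, -0.04 for ISG15 and 0.00 for USP18. The 5th and 95th percentiles of those genes were -0.39 and 0.45, so HERC5 lay at the low edge of this pair, HERC6 beyond it and the other 3 genes near its middle. Ranked from the lowest difference, HERC6 was number 51 and HERC5 number 287 of 6104. A difference of 0.5 units or more downward, as HERC6 had, occurred in 2.36% of genes in this pair. On the same array the chip's 5' control sets stood higher, by 0.95 for ACTB (beta-actin) and 0.84 for GAPDH (a glycolytic enzyme) relative to sgTetO, while their 3' sets differed by 0.06 and -0.01. These control sets report RNA integrity and labelling length, and their part in the HERC5 and HERC6 differences was not tested. Relative to sgTetOmut, these 5' sets differed by -0.13 (ACTB) and -0.18 (GAPDH) on sgTetO. On sgIL1RN1~3 they stood 0.82 (ACTB) and 0.66 (GAPDH) higher than on sgTetOmut. Their part in the members' differences from sgTetOmut was not tested either.

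**Figure D2:**
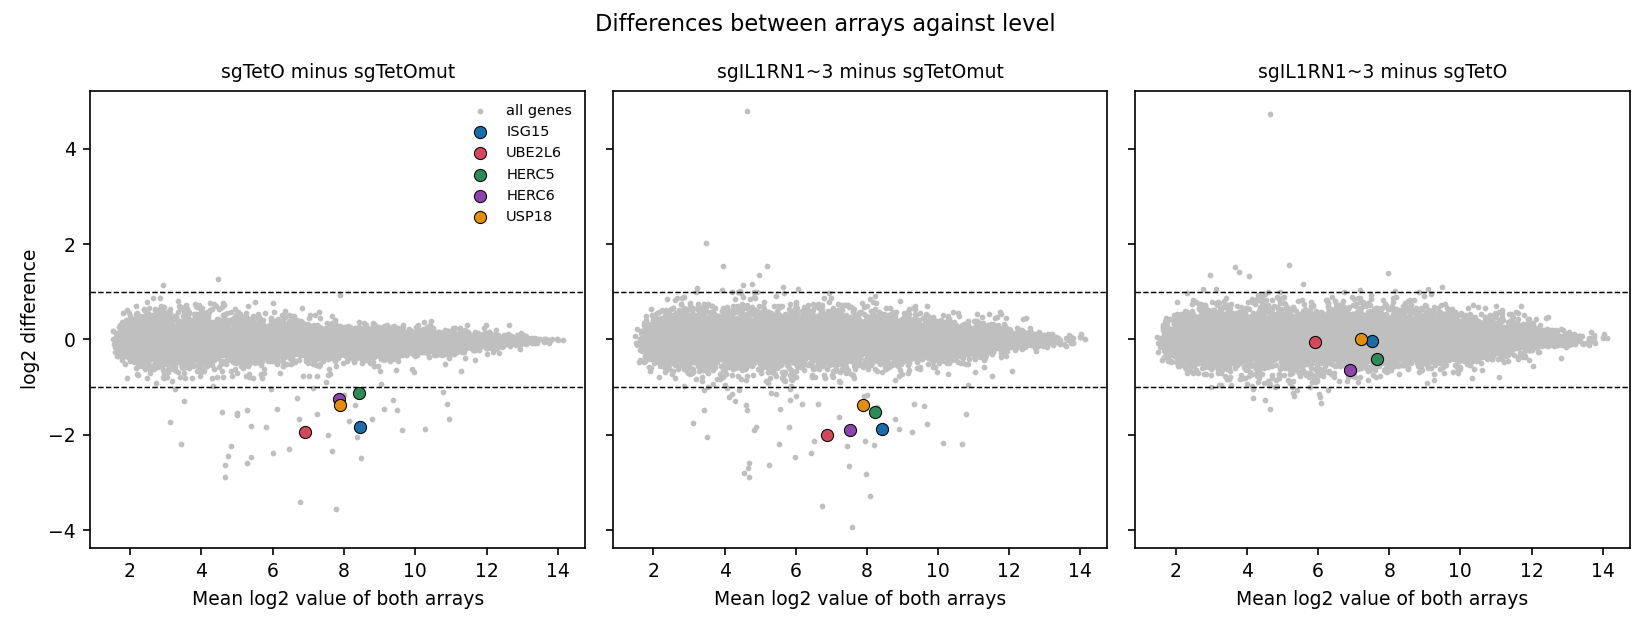
log2 difference between 2 arrays (y axis) against the mean log2 value of both (x axis) for 11963 genes (grey) and the 5 members (coloured), 1 panel per pair of arrays, with dashed lines at 2-fold. In both panels with sgTetOmut the 5 members lie below the lower line, and in the panel of sgIL1RN1~3 minus sgTetO they lie between -0.65 and 0.00.

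Enzymes that do the same steps for ubiquitin and for other ubiquitin-like proteins included no gene 2-fold apart. Of all genes at the median level, 0.611% were that much lower on sgTetO than on sgTetOmut and 0.622% on sgIL1RN1~3. A count of 0 in lists this short lies near those shares and is not a result about these enzymes. Of 6 measured activating enzymes, 0 were 2-fold apart in any pair. UBA1, the main activating enzyme of ubiquitin, read 12.04 on sgIL1RN1~3, 11.35 on sgTetO and 11.51 on sgTetOmut. UBA6, which also activates ubiquitin, read 7.83, 7.63 and 7.82 on the same arrays. Of 11 measured conjugating enzymes, 0 were 2-fold apart, and their median was 0.03 for sgTetO minus sgTetOmut. The one furthest down in that pair among those at the median level was UBE2G2, an enzyme of protein degradation at the endoplasmic reticulum, at -0.25, and the one furthest up was UBE2C, which serves the mitotic ligase APC/C, at 0.30. UBE2L3, the closest relative of UBE2L6, had no probe set of its own here.

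Of the other HERC ligases, HERC1 and HERC2, the giant members of the family, and HERC4, 0 of 3 were 2-fold apart. For sgTetO minus sgTetOmut they differed by 0.04, 0.09 and 0.02, while HERC5 and HERC6 differed by -1.12 and -1.26. The 25 other ubiquitin-specific proteases had a median of -0.04 for that pair, and the furthest from zero was USP12 at -0.39. USP14 and USP48 differed by -0.14 and -0.25. The 10 measured modifiers, ubiquitin's UBB among them, had a median of -0.04, with NEDD8, the modifier of cullins, at -0.16 and GABARAP, a modifier of autophagy, at -0.22. In each pair, 5 activating enzymes, 10 conjugating enzymes, 2 HERC ligases, 20 proteases and 9 modifiers were at the median level. With no minimum level the 5 lists also held 0 genes 2-fold apart in any pair. The share of all genes lower on sgTetO than on sgTetOmut was then 0.41%. In all 5 of these lists the medians lay within 0.13 units of zero in that pair, against -0.01 for all genes.

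The proteins that ISG15 and USP18 work with formed a mixed group. Of 7 measured partners, 3 at the median level, 0 were 2-fold apart in any pair, which again lies near the share over all genes. IFNAR2, the receptor chain that USP18 binds, read 8.49 on sgIL1RN1~3, 8.54 on sgTetO and 8.72 on sgTetOmut, and its second set differed the other way, by 0.53 for sgTetO minus sgTetOmut. SKP2, a ligase subunit that targets USP18, and ARIH1, a ligase reported to work with UBE2L6, differed by 0.06 and -0.06 in that pair. Another SKP2 set differed by 0.00, and a further one, not above background on any array, by -0.28. ITGAL and ITGB2, which form the receptor of secreted ISG15 on lymphocytes, were below the median level on every array.

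Among 19 measured genes whose proteins are reported to be modified by ISG15, 17 were at the median level. Of all genes at that level, 0.611% were at least 2-fold lower on sgTetO than on sgTetOmut. Of the 17, 4 were that much lower and 0 were higher. All 4 are themselves interferon-stimulated: IFIT3 at -2.58, IFIH1 at -2.04, IFIT1 at -1.67 and RIGI at -1.48. IFIT3 reached the median level on sgTetOmut only, so it entered the count through the array where it was high. IFIT1 binds foreign RNA and IFIT3 is its partner protein, and IFIH1 and RIGI sense double-stranded RNA. For sgIL1RN1~3 minus sgTetOmut the count was also 4, against a share of 0.622% over all genes at the median level. IFIT3 stood at -2.63, IFIH1 at -2.81, IFIT1 at -2.20 and RIGI at -1.94. For sgTetO minus sgTetOmut, EIF2AK2, the kinase activated by double-stranded RNA, stood at -0.66 and MX1, an antiviral GTPase, at -0.50. The rest of the other 15 lay between -0.26 and 0.13 in that pair. The median of the list was -0.11 for sgTetO minus sgTetOmut and -0.14 for sgIL1RN1~3 minus sgTetOmut.

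In the interferon pathway upstream of the members, 13 genes were measured and 6 of them were at the median level. Of these, 1 was past the limit, against 0.611% of all genes at that level lower on sgTetO than on sgTetOmut. It was IRF9, the DNA-binding subunit of the complex that binds the response element. IRF9 read 7.41 on sgIL1RN1~3, 7.41 on sgTetO and 8.57 on sgTetOmut. Its difference from sgTetOmut was -1.16 on both arrays. HERC5 and HERC6 stood at -1.12 and -1.26 on sgTetO and further down, at -1.52 and -1.91, on sgIL1RN1~3. TYK2 and JAK1, the receptor's kinases, differed by 0.35 and -0.11 for sgTetO minus sgTetOmut.

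IFNB1, the gene of interferon beta, was below the median level on every array and falls outside the rule for named genes. It is given because it encodes a ligand of this pathway, and it was chosen after its values were seen. With no minimum level it makes 2 of the 13 pathway genes lower on sgTetO than on sgTetOmut, against 0.41% of all genes. Its difference in that pair was -2.46. It read 3.40 on sgIL1RN1~3, 3.53 on sgTetO and 5.98 on sgTetOmut. On sgIL1RN1~3 it was not above background, and on sgTetO it stood 0.12 above it. Its highest value was thus on the same array as those of the 5 members, and a link between them was not tested.

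**Figure D3:**
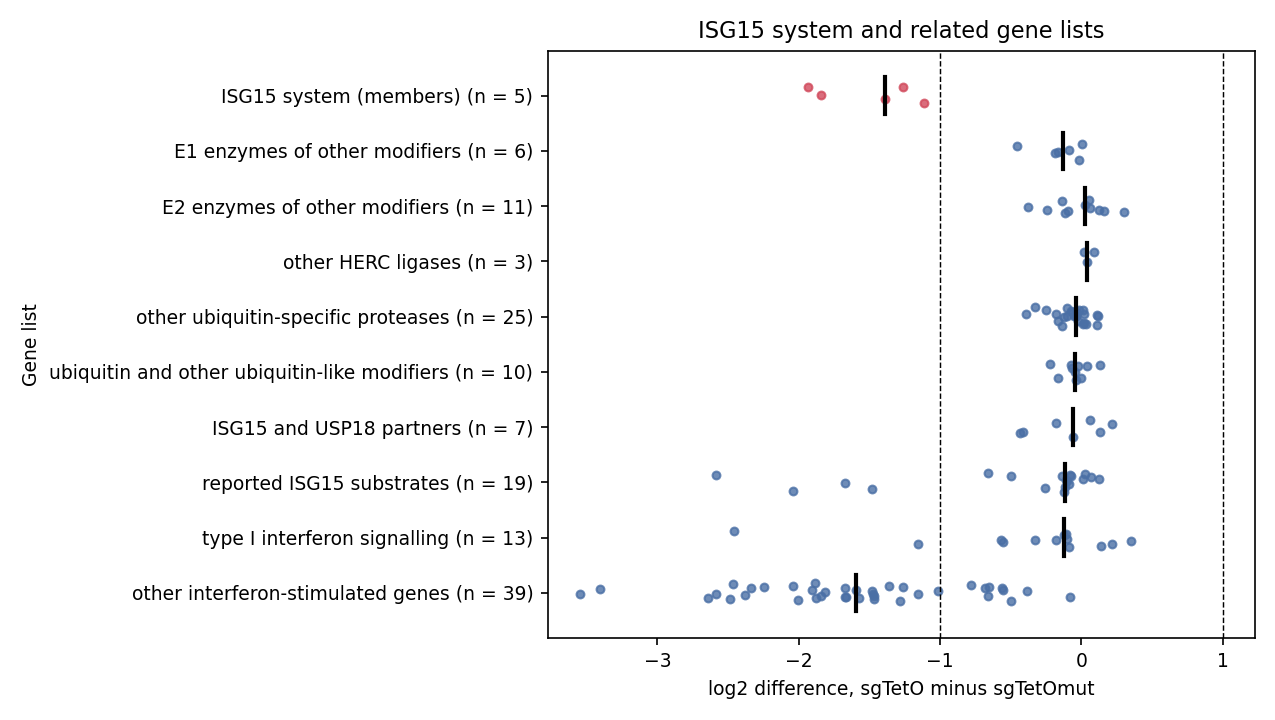
log2 difference of sgTetO minus sgTetOmut (x axis) for each measured gene (points) in the 10 lists (rows), with the list's median as a black bar and dashed lines at 2-fold. The 5 members lie between -1.93 and -1.12, the 5 lists of other modifiers and their enzymes hold 0 genes past a line, and the other interferon-stimulated genes spread from -3.55 to -0.08.

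Set beside 39 other measured interferon-stimulated genes for sgTetO minus sgTetOmut, the members lay inside that list's range. ISG15 and UBE2L6 were lower than the list's median difference of -1.60, and USP18, HERC6 and HERC5 were less far down. The list includes genes below the median level, which all 5 members reached on sgTetOmut. Of the 39 genes, 27 were at the median level, and 25 of these were at least 2-fold lower on sgTetO than on sgTetOmut and 0 were higher. Over all genes at that level, 0.611% were that much lower. In the pair without sgTetOmut 18 of the 39 were at that level. Some genes, RSAD2, OAS2 and IFIT3 among them, thus entered the count only through the array where they were high. IFIT1, IFIT3, RIGI, IFIH1 and IRF9 also stand in the lists above, so the lists are not separate. With no minimum level 30 of 39 were lower, against 0.41% of all genes, and 0 higher. The median of the 39 was -1.60. RSAD2, an antiviral enzyme, stood at -3.55 and OAS2, which makes the activator of RNase L, at -3.40. IFIT3 and IFI44, named by the same rule, stood at -2.58 and -2.49. There were 11 genes of the list lower than UBE2L6 (-1.93), 14 lower than ISG15 (-1.84), 25 lower than USP18 (-1.39), 28 lower than HERC6 (-1.26) and 29 lower than HERC5 (-1.12). In the pair sgIL1RN1~3 minus sgTetO, 0 of the 39 were 2-fold apart and the median was -0.09. Of all genes at the median level in this pair, 0.0983% were 2-fold higher and 0.0655% were 2-fold lower. A count of 0 lies near those shares and is not a result about these genes.

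With 4 genes and 1 array per guide, whether the response-element letters go with the members' differences was not tested. ISG15 and HERC5, whose windows held matches, differed by -1.84 and -1.12 for sgTetO minus sgTetOmut, and UBE2L6 and HERC6, whose windows held none, by -1.93 and -1.26. For sgIL1RN1~3 minus sgTetOmut the values were -1.88, -1.52, -1.99 and -1.91 in the same order of genes. The printed windows cover only a short stretch before the start that RefSeq gives, so an element elsewhere would not be seen.

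Genes with a pattern most like that of ISG15 were sought among 6148 genes by the distance between their 2 differences from sgTetOmut, on sgTetO and on sgIL1RN1~3, over the 3 arrays. The nearest was IFI27, a membrane protein induced by interferon, at a distance of 0.036 log2 units. IFI6, another induced membrane protein, followed at 0.127, and UBE2L6 was the third at 0.148. TRIM22, SHFL, IFITM1, SP110 and IFI44L followed at 0.274 to 0.335. The other 3 members came later, HERC6 at place 15 with 0.581, USP18 at place 19 with 0.672 and HERC5 at place 25 with 0.810. The distance measures likeness over 3 arrays of 1 experiment and says nothing else about these genes.

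The genes next to the members on their chromosomes were looked at to see whether the differences extended along the locus. The 2 nearest measured genes on either side of each of the 6 genes gave 20 neighbours that are not members, 4 of them not above background on any array. In each pair 7 of the 20 were at the median level. None of the 20 lay 2-fold apart in any of the 3 pairs, with or without a minimum level. With no minimum, 0.41% of all genes were 2-fold lower on sgTetO than on sgTetOmut, so a count of 0 in 20 lies near that share. It cannot settle whether a difference extended along a locus. The neighbours' median for sgTetO minus sgTetOmut was -0.08. Beside ISG15, NOC2L, a nucleolar protein, differed by 0.01 and AGRN, agrin of the basement membrane, by -0.27. HERC6 and HERC5 lie side by side, and the nearest measured genes that flank the pair, ABCG2, a drug transporter, and FAM13A, differed by -0.21 and -0.18. Beside UBE2L6, TIMM10, of mitochondrial import, differed by -0.29.

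The widest gap among the 20 neighbours in that pair was at SERPING1, next to UBE2L6, which encodes the inhibitor of complement C1. It read 3.21 on sgIL1RN1~3, 3.36 on sgTetO and 4.16 on sgTetOmut. It was above background on sgTetOmut only and below the median level on all 3 arrays, so it did not enter the count. Beside USP18, PEX26, of peroxisome biogenesis, differed by -0.23, and TUBA8 and PRODH were not above background.

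**Figure D4:**
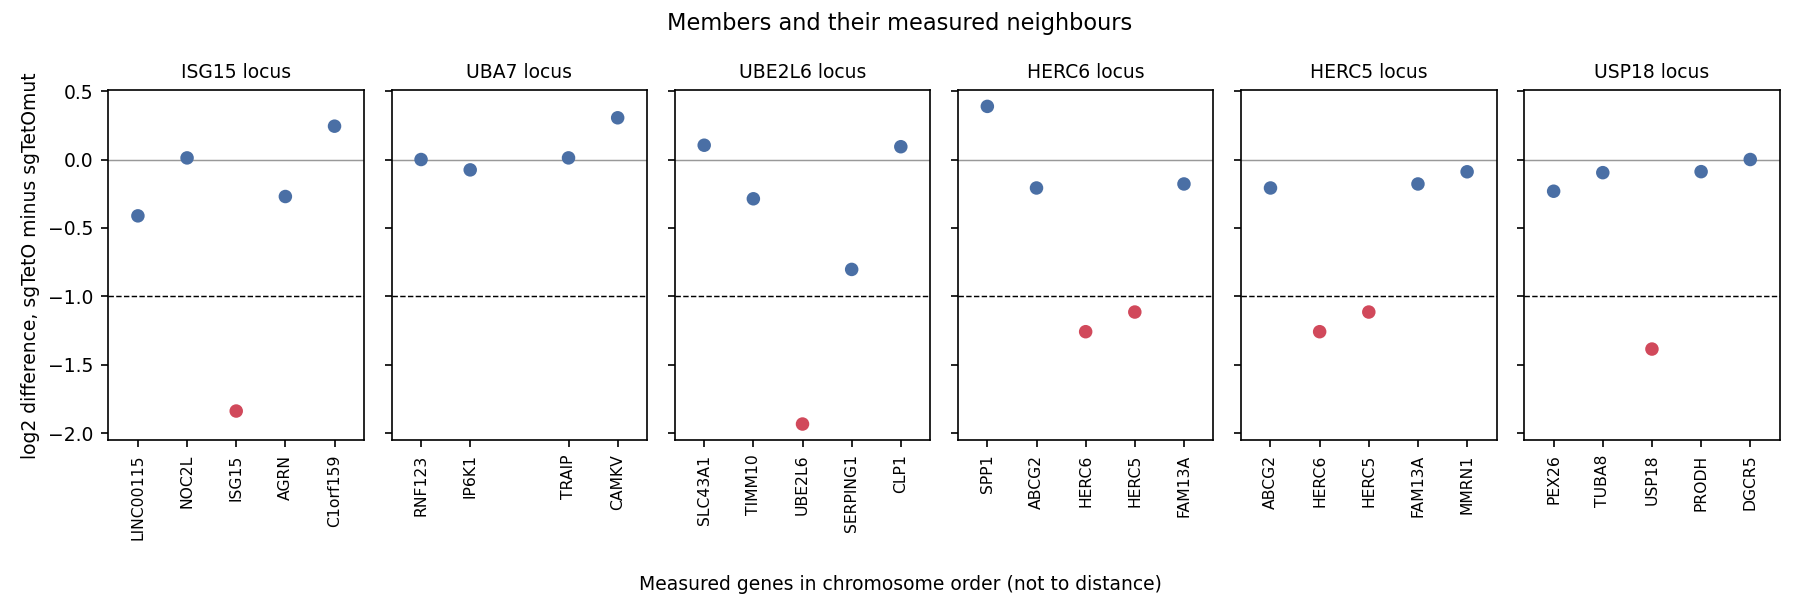
log2 difference of sgTetO minus sgTetOmut (y axis) for members (red) and the 2 nearest measured genes on either side (blue unless a member). Genes stand in chromosome order and not to distance, 1 panel per gene. The UBA7 panel has no red point, since UBA7 has no set of its own. The dashed line marks 2-fold lower, and the red points lie below it, from -1.93 to -1.12, while the blue points lie above it, the lowest being SERPING1 at -0.80.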

How the data were processed

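The authors deposited log2 values for 22277 probe sets on 3 arrays. Per the submitters' processing notes the affy package was used, and its version, background correction, normalization and summary method are not given there or in the labels. The log2 scale was read from the values, which ran from 1.36 to 14.5. The sorted columns lay within 0.104 of their mean at every rank, so a shift shared by all genes would not be visible.

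GEO's platform annotation gave 1 symbol to 19070 sets and several to 1043, which were left without a name, as were 2164 sets it does not list. Where a gene had several sets, the one with the highest average was used. With 1 array per group no test was possible, and the small number of arrays limits precision. The members, lists and rules were chosen with earlier results of these data known. The text names the members, up to 4 genes per list with the largest sgTetO minus sgTetOmut difference at the median level, paralogs, neighbours and the 8 nearest patterns. Other genes named were chosen after their values were seen. Promoter windows came from RefSeq (GRCh38.p14). The counting was tested on simulated data. Alternatives used limma 3.58.1 in R 4.3.3, other steps Python 3.11.15 with pandas 2.3.3. One item is not reported here.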

Additional observations from a re-analysis of the deposited data

How the results depend on the processing

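The counts of members 2-fold apart were the same under quantile scaling, cyclic loess scaling, no minimum level, a minimum at the highest Bacillus set and 16 added to the linear values. The choices of probe set could not alter them, since each member has 1 set. They moved with the fold limit: at 3-fold, 2 members were lower on sgTetO and 3 on sgIL1RN1~3 than on sgTetOmut, and at 1.5-fold 1 member, HERC6, was apart between sgIL1RN1~3 and sgTetO, against 0 at 2-fold. Counts over all genes moved too. For sgIL1RN1~3 against sgTetOmut, 40 genes were 2-fold apart, and 71 with no minimum level or the Bacillus minimum, 151 at 1.5-fold and 25 at 3-fold. For sgIL1RN1~3 against sgTetO, 10 genes became 27 with no minimum, 26 with the Bacillus minimum, 5 with 16 added, 200 at 1.5-fold and 1 at 3-fold. For sgTetO against sgTetOmut, 37 became 21 at 3-fold. These changes follow from the construction of the limits. Of 45 member differences recomputed with other scaling or 16 added, 44 stayed within a spread of the 200 genes nearest in level. The other, UBE2L6 for sgTetO minus sgTetOmut with 16 added, moved to -1.69. This spread is wider than the median absolute difference given above, at 0.30 against 0.08 for ISG15 in sgTetO minus sgTetOmut. By the narrower scale more would count as moved. With 16 added, UBE2L6 for sgIL1RN1~3 minus sgTetOmut went from -1.99 to -1.74, against a median absolute difference of 0.16. No paired analysis was possible because each group holds 1 array.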
